A study of Homo sapiens with 8 samples.

Results

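The enzymes and complexes that write, read and erase histone marks were examined as 47 genes. These were chosen by name, with earlier results of these data known, from the 43869 genes in the deposited table. All 47 were found there by their Ensembl identifiers. By role they are 10 histone acetyltransferases, 11 zinc-dependent deacetylases, 4 sirtuins, 4 bromodomain proteins and 7 SWI/SNF remodelling subunits, together with 3 PRC2 subunits, 4 other histone methyltransferases and 4 histone demethylases. The last 3 groups act on histone methylation rather than on acetylation. Of the 47 genes, 46 had an RNA level of at least log2 of 25 reads (4.64) in 1 or more lines and were taken as expressed. HDAC10 did not, with 4.22 in naive cells, 3.98 in erCriz0, 4.36 in erAlec0, and 4.28 in erLor0, so it entered no count of RNA.

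The cells were H3122, an established lung adenocarcinoma line that depends on an EML4-ALK fusion kinase, with 3 derivatives that had evolved resistance to ALK inhibitors under stepwise dose escalation. Treatment-naive H3122 cells served as the control. The derivatives were erCriz0, evolved in 0.5 µM crizotinib, erAlec0, evolved in 2 µM alectinib, and erLor0, evolved in 2 µM lorlatinib. All cells were grown in RPMI with serum, with DMSO at 0.1% per the labels, and inhibitors had been withdrawn for 48 h when RNA was taken. The methods name no such withdrawal for the ChIP-seq cells, so drug exposure may differ between the assays. For each line there is 1 RNA-seq library and 1 H3K27ac ChIP-seq library, so no value below carries a replicate error, no test between lines was possible, and a difference may lie within the spread that repeats of a line would show. Levels are rlog values, which are log2-scaled, normalized read counts from DESeq2, and changes are differences from the naive library, positive where a resistant line is higher. Genes and peaks were counted once they differed by 1 or more in either direction. The 4 samples labelled erCriz1, erLor1, Lor 2w and pooled input were not analysed here.

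Acetylation of histone tails loosens their hold on DNA and creates docking sites for bromodomains. EP300 and CREBBP place the H3K27ac mark that was profiled here, and class I deacetylases remove it within corepressor complexes. SWI/SNF complexes slide or evict nucleosomes and oppose PRC2, whose subunit EZH2 methylates the same lysine. A lysine that is acetylated cannot be methylated at the same time. Genes for these proteins are often mutated in lung cancer, SMARCA4 and KMT2D among them, and deacetylases and EZH2 are drug targets.

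As a check on cell identity, all 7 epithelial markers were expressed, with no rlog below 10.67 in any line. The leukocyte markers PTPRC, CD3E and CD68 did not reach the minimum, with rlog values of at most 1.69. Of 3 endothelial markers CDH5 passed, at 4.10 in naive cells, 4.28 in erCriz0, 5.78 in erAlec0 and 5.64 in erLor0. Of 3 fibroblast markers examined, COL1A1 passed, while DCN and LUM did not. ALK itself read 8.18 in naive cells, 10.65 in erCriz0, 9.58 in erAlec0 and 8.10 in erLor0. These are bulk libraries, where fewer cells with a transcript and less of it per cell cannot be told apart.

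The promoter windows of the genes on which the results turn are printed here because their RNA or the H3K27ac over their starts differed most between lines. Each window covers 250 bases before and 50 after a RefSeq start on GRCh38.p14. RefSeq windows were matched for 40 of the 47 genes. Capitals mark exact matches, on either strand, to the letters CCAAT (the CCAAT box), GGGCGG (the GC box), TATAAA (the TATA box) or CACGTG (an E box), and neighbouring matches may overlap. A match describes the letters only.
EZH2, minus strand, chr7:148884242-148884541: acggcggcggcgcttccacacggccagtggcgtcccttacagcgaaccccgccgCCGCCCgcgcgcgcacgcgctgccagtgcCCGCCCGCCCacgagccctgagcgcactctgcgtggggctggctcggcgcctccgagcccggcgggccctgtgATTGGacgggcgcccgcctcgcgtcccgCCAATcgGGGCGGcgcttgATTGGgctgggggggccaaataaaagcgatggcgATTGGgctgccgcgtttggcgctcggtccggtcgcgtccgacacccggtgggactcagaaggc
HDAC9 distal start, plus strand, chr7:18086575-18086874: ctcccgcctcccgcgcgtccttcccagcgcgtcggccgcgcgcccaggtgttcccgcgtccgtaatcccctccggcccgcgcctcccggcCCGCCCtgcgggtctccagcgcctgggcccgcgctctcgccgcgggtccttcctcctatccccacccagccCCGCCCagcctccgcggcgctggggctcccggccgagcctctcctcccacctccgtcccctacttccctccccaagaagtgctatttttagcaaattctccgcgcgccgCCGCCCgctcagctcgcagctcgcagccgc
HDAC9 internal start, plus strand, chr7:18495499-18495798: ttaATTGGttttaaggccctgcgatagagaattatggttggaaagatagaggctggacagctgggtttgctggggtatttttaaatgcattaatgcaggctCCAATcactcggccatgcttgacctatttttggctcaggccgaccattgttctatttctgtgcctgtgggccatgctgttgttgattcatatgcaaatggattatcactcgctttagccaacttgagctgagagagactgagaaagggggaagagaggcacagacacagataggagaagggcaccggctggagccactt
HDAC7, minus strand, chr12:47819854-47820153: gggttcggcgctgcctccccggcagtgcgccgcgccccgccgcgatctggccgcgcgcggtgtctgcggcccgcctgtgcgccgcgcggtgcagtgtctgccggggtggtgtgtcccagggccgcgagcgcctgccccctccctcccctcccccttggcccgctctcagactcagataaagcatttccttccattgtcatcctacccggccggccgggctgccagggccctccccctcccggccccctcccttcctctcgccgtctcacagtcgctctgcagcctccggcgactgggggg
KMT2D, minus strand, chr12:49060745-49061044: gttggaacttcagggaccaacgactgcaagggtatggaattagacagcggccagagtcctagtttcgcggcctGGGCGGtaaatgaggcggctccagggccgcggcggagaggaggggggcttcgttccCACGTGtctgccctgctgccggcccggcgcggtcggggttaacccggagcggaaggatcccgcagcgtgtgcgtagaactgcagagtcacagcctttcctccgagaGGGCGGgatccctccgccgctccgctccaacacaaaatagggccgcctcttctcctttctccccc
KDM6B, plus strand, chr17:7833967-7834266: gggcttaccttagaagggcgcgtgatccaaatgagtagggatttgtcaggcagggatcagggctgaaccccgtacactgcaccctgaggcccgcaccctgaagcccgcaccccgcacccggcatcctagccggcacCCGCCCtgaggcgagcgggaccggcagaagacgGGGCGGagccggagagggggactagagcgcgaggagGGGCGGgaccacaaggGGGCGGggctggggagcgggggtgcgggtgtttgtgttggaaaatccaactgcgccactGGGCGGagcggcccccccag

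The EZH2 window holds 4 GC boxes and 4 CCAAT boxes. The HDAC9 distal start has 3 GC boxes, 41 CpG dinucleotides and 75% GC, whereas its internal start has 2 CCAAT boxes, 5 CpG dinucleotides and 47.3% GC. Over all 35116 windows the median is 58.7% GC and 14 CpG dinucleotides. KDM6B holds 5 GC boxes, KMT2D holds 2 GC boxes and 1 E box, and HDAC7 has no match to any of the 4 motifs. Among all windows, 45% hold a GC box, 34.6% a CCAAT box, 11.5% a TATA box and 7.26% an E box.

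RNA changes of the chromatin regulators were mostly small in every resistant line, as were those of all expressed genes. Few of all expressed genes reached a change of 1, so few of 46 would be counted at the general share. None of the 46 expressed genes reached a change of 1 in erCriz0, erAlec0 or erLor0, where 4.3%, 4.53% and 1.84% of all 12701 expressed genes did, counting both directions. At a limit of 1.5-fold, erCriz0 had 2 genes above and 1 below (background 7.56% and 8.52%), erAlec0 had 4 above and 2 below (7.94% and 8.0%), and erLor0 had 0 above and 1 below (4.44% and 3.65%). Genes above naive numbered 21, 29 and 29 of 46, beside 47.9%, 50.3% and 49.4% of all expressed genes. Median changes were -0.05, 0.07 and 0.07 in the same order, beside -0.02, 0.00 and -0.00. The median size of a change, sign ignored, was 0.20, 0.21 and 0.18, beside 0.26, 0.24 and 0.17. All 3 comparisons use the same naive library.

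**Figure D1:**
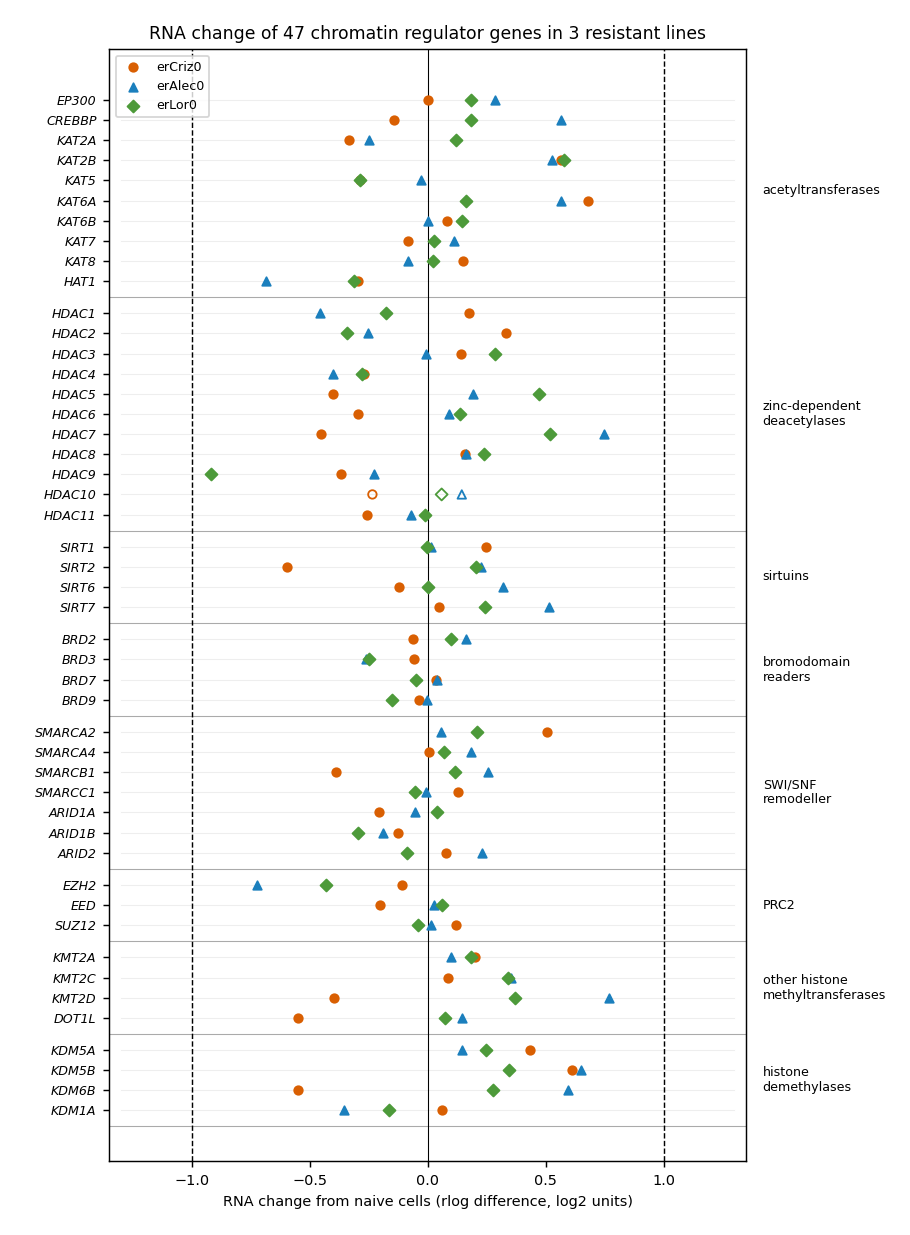
RNA change from naive cells (x axis, rlog difference in log2 units) of the 47 genes (y axis, grouped by role) in erCriz0 (circles), erAlec0 (triangles) and erLor0 (diamonds), 1 library per line. Dashed lines mark changes of -1 and 1, which no gene passed; open symbols mark HDAC10, below the read minimum.

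Highest minus lowest level over the 4 lines, the range, reached 1 in 3 of 46 genes (6.52%), beside 12.1% of all expressed genes. These were HDAC7, KMT2D and KDM6B. In 20 of 46 the range was at most 0.3. BRD7, a bromodomain subunit of SWI/SNF, varied least, with 9.57 in naive cells, 9.60 in erCriz0, 9.60 in erAlec0 and 9.51 in erLor0. The lowest of the 4 values fell in erCriz0 in 18 of 46 genes (39.1%, beside 33.0% of all expressed genes). The highest fell in erAlec0 in 17 (37%, beside 27%).

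**Figure D2:**
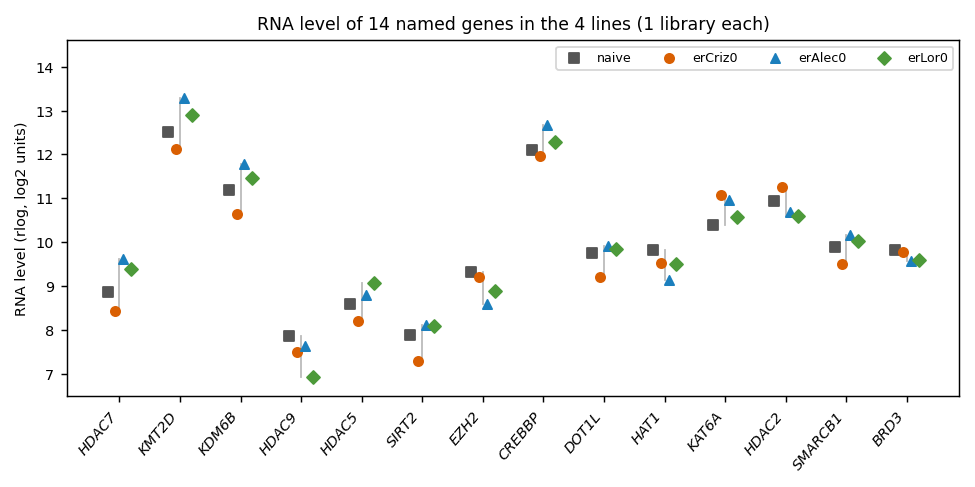
RNA level (y axis, rlog in log2 units) of the 12 genes with the largest range over the 4 lines, and of SMARCB1 and BRD3, which had the largest range in their role. Each symbol is 1 library. Lines are to be compared within a gene, since levels are not scaled for gene length. Of the 12 genes, erCriz0 has the lowest value in 7, beside 33.0% of all expressed genes. The 12 were picked by their range over these same libraries, so that count and that share are not like for like.

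Among the acetyltransferases 8 of 10 genes were higher than naive in erLor0, 6 in erAlec0 and 4 in erCriz0, with medians of 0.13, 0.06 and -0.04. CREBBP, the paralogue of EP300, had an RNA level of 12.10 in naive cells, 11.96 in erCriz0, 12.67 in erAlec0 and 12.28 in erLor0. Its highest value was thus in erAlec0, by 0.57 over naive. EP300 read 11.80, 11.80, 12.08 and 11.98 in the same order. Both were the 2 highest acetyltransferases per kb of exon in all 4 lines, at 8.25 and 8.15 for EP300 and CREBBP in naive cells. KAT6A, a MYST-family acetyltransferase that acts on H3K23 and H3K14, read 10.40 in naive cells, 11.08 in erCriz0, 10.97 in erAlec0 and 10.57 in erLor0. The crizotinib and alectinib lines lay above the other 2. HAT1, which acetylates newly made histone H4 before its deposition on DNA, went the other way, from 9.82 in naive cells to 9.53, 9.14 and 9.51 in erCriz0, erAlec0 and erLor0.

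KAT2B, also called PCAF, was the lowest acetyltransferase per kb in every line. Its RNA read 5.21 in naive cells, 5.77 in erCriz0, 5.73 in erAlec0 and 5.79 in erLor0. Its promoter H3K27ac peak read 5.55, 6.36, 6.42 and 6.47. On both assays naive cells had the lowest value, and the 3 resistant lines lay at most 0.11 apart.

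Zinc-dependent deacetylases had a median range of 0.53 over 10 expressed genes. HDAC7, a class IIa deacetylase that acts mainly as a corepressor scaffold, read 8.88 in naive cells, 8.43 in erCriz0, 9.63 in erAlec0 and 9.40 in erLor0. Its level was lowest in erCriz0 and above naive in the other 2. HDAC5, of the same class, showed its lowest value in erCriz0 as well, with 8.60, 8.20, 8.79 and 9.07 in the same order. HDAC4, the third of the class, was below naive in all 3, with 8.90, 8.63, 8.50 and 8.62. HDAC9, the fourth, read 7.86, 7.49, 7.63 and 6.94, and its fall by 0.92 in erLor0 was the largest change in either direction among the 46 genes in any line.

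HDAC1 and HDAC2, class I deacetylases, are catalytic cores of the Sin3, NuRD and CoREST complexes. HDAC2 read 10.93 in naive cells, 11.27 in erCriz0, 10.68 in erAlec0 and 10.59 in erLor0, so that erCriz0 stood above naive and the other 2 below. The median RNA change of 36 expressed neighbours within 5 Mb of HDAC2 was 0.23, -0.14 and -0.34, against 0.33, -0.25 and -0.34 for HDAC2 itself. The direction was that of its neighbours in all 3 lines, and whether the copy number of the region differs was not tested. HDAC1, the most abundant deacetylase per kb in all 4 lines, read 10.84, 11.01, 10.38 and 10.66 in the same order of lines. HDAC3, the core of the NCOR complexes, read 8.81, 8.95, 8.80 and 9.10. HDAC8, HDAC11 and HDAC10 were the lowest 3 per kb in naive cells.

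Of the NAD-dependent sirtuins, SIRT2 read 7.89 in naive cells, 7.29 in erCriz0, 8.12 in erAlec0 and 8.10 in erLor0. Its fall by 0.60 in erCriz0 was the largest fall of any of the 46 genes in that line. With the trend with GC content subtracted, as described below, SIRT2 changed there by -0.35, beside -0.51 for HDAC9 and -0.49 for HAT1. SIRT7, which removes acetyl groups from H3K18, read 8.41, 8.46, 8.92 and 8.65. SIRT1 and SIRT6 ranged by at most 0.44 over the 4 lines.

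Bromodomain readers were the steadiest group, with ranges from 0.09 to 0.26. BRD3 had the widest of them, with 9.84 in naive cells, 9.78 in erCriz0, 9.58 in erAlec0 and 9.59 in erLor0. BRD2, a BET protein that binds acetylated H4, was the highest of the group per kb. Of the SWI/SNF subunits, SMARCB1 varied most, with 9.91, 9.52, 10.16 and 10.02, and was lowest in erCriz0. The ATPase SMARCA4 read 11.69, 11.69, 11.87 and 11.76, a range of 0.18. Its paralogue SMARCA2 read 9.12, 9.62, 9.17 and 9.33, highest in erCriz0. ARID1A was the highest SWI/SNF subunit per kb, at 8.33 in naive cells.

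KMT2D, which monomethylates H3K4 at enhancers, read 12.52 in naive cells, 12.12 in erCriz0, 13.28 in erAlec0 and 12.89 in erLor0. Its level in erCriz0 was below naive and that in the other 2 above. KMT2C, its paralogue, read 11.68, 11.76, 12.03 and 12.02, with reads that may be shared with near-identical copies elsewhere in the genome. DOT1L, the H3K79 methyltransferase, read 9.77, 9.22, 9.91 and 9.84, lowest in erCriz0. KDM6B, a demethylase of H3K27, read 11.19, 10.64, 11.78 and 11.47 and thus had the same order of lines as KMT2D. KDM5B, which removes H3K4 methylation and is linked to drug tolerance in other cells, read 10.00, 10.62, 10.65 and 10.35, lowest in naive cells. KDM1A, the CoREST demethylase, read 9.93, 9.99, 9.57 and 9.76.

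Compared directly, without the naive library, erAlec0 exceeded erCriz0 by at least 1 for 3 of 46 genes (6.52%, beside 3.22% of all expressed genes), and 0 fell below it by that much (background 2.68%). HDAC7 was higher by 1.2, KMT2D by 1.16 and KDM6B by 1.15, which is about the same step for a corepressor, an H3K4 methyltransferase and an H3K27 demethylase. HDAC7 and KMT2D both lie on chromosome 12, and their surroundings of 5 Mb overlap. Expressed neighbours within 5 Mb of HDAC7 had median changes from naive of -0.05 in erCriz0 and 0.34 in erAlec0. At KMT2D these were -0.11 and 0.34, and at KDM6B -0.18 and -0.13. Whether the copy number of these regions differs was not tested. Between erLor0 and erCriz0 no gene reached the limit in either direction (background 5.37%), and HDAC7 came closest with 0.97. Between erLor0 and erAlec0 none did (background 1.23%).

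Differences against erCriz0 followed transcript GC content across the genome. Over 12684 expressed genes with a known transcript, the Spearman correlation of GC content with the difference of erAlec0 from erCriz0 was 0.521, and with that of erLor0 from erCriz0 it was 0.550. Against naive, erCriz0 gave -0.450, erAlec0 0.146 and erLor0 0.189. Over the 46 chromatin regulators the values were 0.632 and 0.688 against erCriz0. Genes are not replicates, and each value rests on 2 libraries. The 3 genes above are GC-rich, with 62.7% for HDAC7, 62.2% for KDM6B and 59.8% for KMT2D, where the median is 48.1% over all genes and 51.7% over the chromatin regulators. After the median difference of genes of like GC content was subtracted, in 50 bins, HDAC7 differed by 0.75, KMT2D by 0.84 and KDM6B by 0.71, and 0 of 46 genes reached 1. On the same footing EZH2 was lower in erAlec0 than in erCriz0 by -0.53, instead of -0.62. Against naive, the same subtraction took HDAC7 in erCriz0 from -0.45 to -0.12, HDAC5 from -0.40 to -0.11 and KMT2D from -0.40 to -0.11. SMARCB1 went from -0.39 to -0.11, DOT1L from -0.55 to -0.22 and KDM6B from -0.55 to -0.22. Some genes moved the other way, HDAC9 from -0.37 to -0.51 and HAT1 from -0.30 to -0.49 among them. Whether the trend arose in the cells or in the libraries was not tested.

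**Figure D3:**
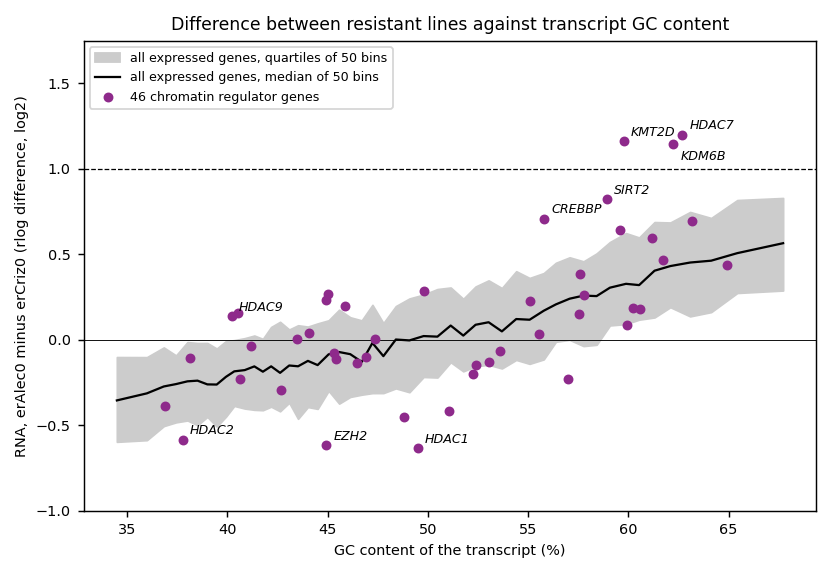
RNA level in erAlec0 minus erCriz0 (y axis, rlog difference in log2 units) against transcript GC content (x axis, %). Points are the 46 expressed chromatin regulators, the black line is the median and the grey band the quartiles of all expressed genes in 50 GC bins; HDAC7, KMT2D and KDM6B lie above the dashed limit of 1 and above the band at their GC content.

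EZH2, the methyltransferase of PRC2, was the member of that complex with the widest range. Its RNA read 9.32 in naive cells, 9.21 in erCriz0, 8.60 in erAlec0 and 8.89 in erLor0, changes of -0.11, -0.72 and -0.43. SUZ12, the scaffold of the complex, read 9.51, 9.63, 9.52 and 9.47. EED, which binds the finished H3K27me3 mark, read 6.82, 6.62, 6.85 and 6.88. Of the changes of these partners, the largest was -0.20, for EED in erCriz0.

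EZH2 is transcribed mainly in dividing cells. A list of 18 proliferation genes, MKI67 and MCM subunits among them, had median changes of -0.52, -1.0 and -0.63 in erCriz0, erAlec0 and erLor0, and 9 of 18 fell by at least 1 in erAlec0, where 2.07% of all expressed genes did. PCNA, the sliding clamp of DNA replication, read 9.50 in naive cells, 8.52 in erCriz0, 7.69 in erAlec0 and 8.34 in erLor0. As with EZH2, its lowest value was in erAlec0. The part of proliferation in the EZH2 values was not tested.

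Over the EZH2 promoter printed above, H3K27ac was higher in every resistant line. The peak, chr7:148882696-148885872, read 7.94 in naive cells, 8.56 in erCriz0, 9.09 in erAlec0 and 8.89 in erLor0. The order of the lines was the reverse of that of the RNA. Other peaks within 5 Mb had median changes of 0.21, 0.27 and 0.26, against 0.62, 1.16 and 0.96 for the EZH2 peak.

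H3K27ac at the promoters of the other chromatin regulators was slightly higher, as at most promoters. A promoter peak, one within 1 kb of the annotated gene start, was found for 43 of the 46 expressed genes. In erCriz0, erAlec0 and erLor0, 40, 35 and 37 of these 43 peaks were above naive, where 85.5%, 73.7% and 86.7% of the promoter peaks of all expressed genes were. The median change was 0.40, 0.35 and 0.48, beside 0.34, 0.26 and 0.41. Strong peaks as a whole lay above naive and weak ones below, with a median change of 0.12, 0.08 and 0.13 in the stronger and -0.13, -0.04 and -0.11 in the weaker of 2 equal parts of all peaks. The part of peak strength in the promoter values was not tested.

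One promoter peak per line passed a change of 1. In erCriz0 it was that of HDAC9, at 1.59 (background 4.08%). In erAlec0 it was EZH2, at 1.16 (6.6%), and in erLor0 BRD7, at 1.14 (7.85%). The BRD7 peak read 4.72 in naive cells, 5.17 in erCriz0, 5.69 in erAlec0 and 5.86 in erLor0, while BRD7 RNA had the smallest range of all. No promoter peak fell by 1 or more (background 0.341%, 1.23% and 0.656%). A variant took the strongest peak at any RefSeq start of each gene in place of the GENCODE gene start. With it, 0 promoter peaks rose in erCriz0 and 1 fell in each of erAlec0 and erLor0. For HDAC9 that is a peak at another start, with changes of 0.33 in erCriz0, 0.41 in erAlec0 and -1.04 in erLor0. The fall in erAlec0 was at HDAC4, from 10.11 in naive cells to 9.04. At GENCODE starts the lowest changes were both in erAlec0, at -0.83. One was at HDAC1, with 9.15, 8.86, 8.32 and 9.02 in the order naive, erCriz0, erAlec0 and erLor0. The other was at SIRT7, with 10.82, 10.84, 9.99 and 10.49, where RNA was above naive by 0.51.

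HDAC7, HDAC2 and SMARCA2 have no peak at the GENCODE gene start, but each has one at a RefSeq start. The HDAC7 peak over the window printed above read 10.24 in naive cells, 10.13 in erCriz0, 10.78 in erAlec0 and 10.25 in erLor0, highest in erAlec0 as the RNA was. KMT2D had 10.40, 10.88, 11.09 and 10.88 at its promoter. KDM6B stayed level at its GENCODE start, with 11.51, 11.55, 11.32 and 11.44, although its RNA ranged by 1.15. The peak over the printed KDM6B window, at another start, read 10.90, 10.97, 10.76 and 10.94. HDAC2 had 9.35, 9.99, 9.95 and 9.90.

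RNA and promoter H3K27ac had the same direction of change for 18 of 43 genes in erCriz0 (41.9%), for 27 in erAlec0 (62.8%) and for 25 in erLor0 (58.1%). Over all expressed genes with a promoter peak these shares were 51.5%, 51.3% and 51.0%. Over all genes the sign of the promoter change matched that of the RNA in about as many genes as not. Since most promoter peaks of the chromatin regulators were above naive in each line, a match mostly meant RNA above naive. RNA was above naive for 45.7%, 63.0% and 63.0% of the 46 expressed genes, so the shares cannot show how far the assays go together.

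**Figure D4:**
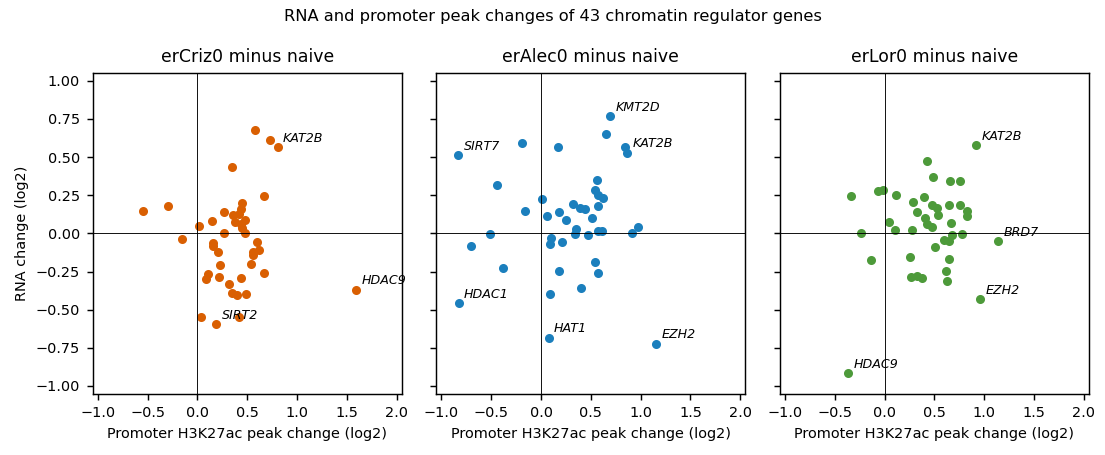
RNA change (y axis, log2) against promoter H3K27ac peak change (x axis, log2) from naive cells in erCriz0, erAlec0 and erLor0, 1 point for each of 43 genes. Most points lie to the right of 0 in each panel; EZH2 lies at the lower right in erAlec0 (1.16 and -0.72), and HDAC9 at the far right in erCriz0 (1.59 and -0.37).

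All peaks within 20 kb of the 47 genes number 659 of 126470. In erCriz0, 24 rose by at least 1 (3.64%, background 7.0%) and 18 fell (2.73%, background 5.94%). In erAlec0, 82 rose (12.4%, background 14.1%) and 50 fell (7.59%, background 9.41%). In erLor0, 26 rose (3.95%, background 7.45%) and 43 fell (6.53%, background 8.82%). HDAC9 alone held 24 of the 82 rises in erAlec0 and 20 of the 43 falls in erLor0, and without its peaks the counts were 58 and 23. Peaks along 1 gene are not independent of one another.

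Some genes had most of their peaks to one side. All 14 peaks of ARID2, the subunit that marks the PBAF form of SWI/SNF, were above naive in erAlec0, with 7 past the limit and a median of 1.03, in a region of median 0.42. All 12 at EP300 and all 8 at SUZ12 were above naive there too, with medians of 0.78 and 0.92. HDAC1 was the opposite, with 0 of 25 peaks above naive in erAlec0, 10 falls and a median of -0.94, where other peaks within 5 Mb of its promoter had a median of -0.32. Of 21 peaks at HDAC4, 8 fell in erAlec0, in a region of median -0.43. None of the 17 peaks at KDM6B was above naive in erAlec0, with a median of -0.60, although KDM6B RNA was higher there. Of the peaks at HDAC1, 22 of 25 also lie within 20 kb of another gene, as do all 17 at KDM6B. The same holds for 13 of 14 at ARID2, 9 of 12 at EP300, 7 of 8 at SUZ12 and 3 of 21 at HDAC4. Some of these peaks were weak. At ARID2, 6 of 14 peaks reached log2 of 15 reads in at least 1 line, and 4 of the 7 rises were among them. At HDAC1, 13 of 25 peaks did, with 5 of the 10 falls. At HDAC4, 17 of 21 did, with 7 of the 8 falls.

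The largest rises in erAlec0 were at peaks of KAT2B and ARID2. An intronic KAT2B peak, chr3:20048593-20050142, read 3.52 in naive cells, 3.72 in erCriz0, 5.89 in erAlec0 and 4.54 in erLor0. An intronic ARID2 peak, chr12:45800583-45801215, read 2.82, 2.97, 5.14 and 4.10. In both, erAlec0 was highest and erLor0 next. HDAC4 had the largest rise in erCriz0, at an intronic peak, chr2:239244906-239248166, with 7.44, 9.10, 6.92 and 7.46, where erCriz0 stood alone.

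The largest falls in erAlec0 were at a peak 15115 bp from KDM1A, with 9.58, 9.14, 7.61 and 8.14, which is also paired with LUZP1, and at an intronic HDAC1 peak also paired with MARCKSL1, with 4.09, 3.47, 2.20 and 2.90. In both erAlec0 was lowest. In erLor0 the largest rises were at an intronic SMARCB1 peak, also paired with DERL3, with 6.15, 7.20, 6.52 and 7.79, and at an intronic KAT6B peak, with 3.52, 3.07, 4.72 and 5.02. In erCriz0 the falls were an intronic HDAC9 peak, from 4.97 to 3.66, and a peak 18185 bp from KDM6B that is also paired with DNAH2, from 4.81 to 3.51.

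HDAC9 carried 73 of the 659 peaks, the most of any of the genes, and 64 lie in its introns. The gene spans chr7:18086949-19002416 and has RefSeq starts at its 5′ end and from 409 kb further in, where shorter transcripts begin. The peak set, merged over samples, holds peaks in both parts, and their levels moved differently. Of the 73 peaks, 48 reached log2 of 15 reads in at least 1 line. At the distal start the stronger promoter peak, chr7:18086952-18089356, read 5.88 in naive cells, 7.47 in erCriz0, 5.50 in erAlec0 and 5.52 in erLor0. At the internal start, chr7:18495585-18497307, the levels were 5.75, 5.97, 6.92 and 5.02. Thus erCriz0 was highest at the CpG-rich start and erAlec0 at the CpG-poor one, both printed above. A further internal RefSeq start, with the window chr7:18509020-18509319, has the strongest peak of all HDAC9 starts. That peak read 8.90 in naive cells, 9.24 in erCriz0, 9.31 in erAlec0 and 7.87 in erLor0, so erCriz0 and erAlec0 lay close together there.

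From the internal start on, 52 of 53 peaks were above naive in erAlec0, 23 of them by at least 1, with a median of 0.91. The exception is the last, 580 kb from the gene start, which fell by 1.0. Of the 20 peaks before the internal start, 5 were above naive in erAlec0, 1 rose and 3 fell, with a median of -0.23. In erLor0, 1 of 73 peaks was above naive and 20 fell, with a median of -0.73, where other peaks within 5 Mb of the promoter, those of HDAC9 among them, had a median of -0.68. The deepest fall in erLor0 was at an intronic peak, chr7:18383042-18390009, with 9.72 in naive cells, 9.67 in erCriz0, 8.15 in erAlec0 and 7.50 in erLor0. Of the 73 peaks, 15 were above naive in erCriz0, with a median of -0.38.

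The RNA of HDAC9 did not follow the erAlec0 peaks, with 7.63 against 7.86 in naive cells, and was lowest in erLor0, at 6.94. Over 21 expressed neighbours within 5 Mb RNA changed by a median of 0.16, 0.05 and -0.10 in erCriz0, erAlec0 and erLor0. There is 1 RNA value for the gene, so transcripts from its different starts cannot be told apart.

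**Figure D5:**
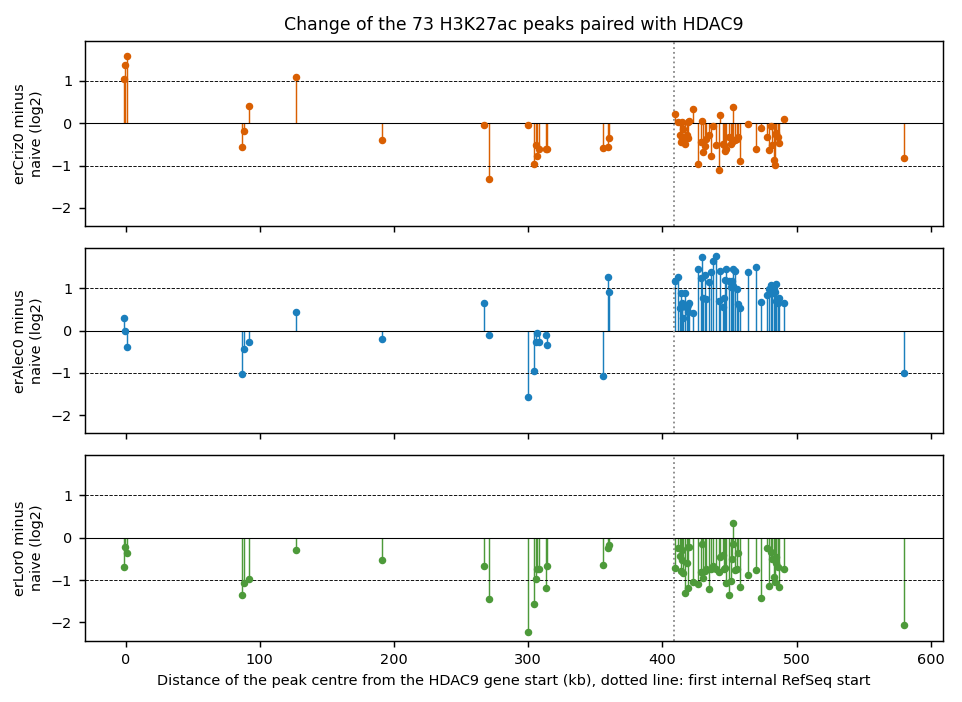
Change from naive cells (y axis, rlog difference in log2 units) of the 73 H3K27ac peaks paired with HDAC9 against the distance of the peak centre from the gene start (x axis, kb), in erCriz0, erAlec0 and erLor0. Dashed lines mark -1 and 1 and the dotted line the first internal RefSeq start, from which 52 of 53 peaks lie above 0 in erAlec0; in erLor0, 1 of 73 does.

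Another 83 genes work with these proteins, as subunits of acetyltransferase, corepressor and SWI/SNF complexes, as further acetyl-lysine readers and as sources of acetyl-CoA. Of these 79 were expressed. None changed by 1 in erCriz0 (background 4.3% in both directions together). In erAlec0 2 were higher, NCOR1 and CECR2 (background 2.46%), and 1 was lower, ATAD2 (background 2.07%). In erLor0 1 was higher, CECR2 (background 1.1%). The median change was -0.08, 0.04 and -0.00.

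NCOR1, the corepressor that docks HDAC3, read 12.20 in naive cells, 12.27 in erCriz0, 13.64 in erAlec0 and 12.19 in erLor0. Thus erAlec0 stood alone. The neighbours of NCOR1 were not examined, and whether the copy number of its region differs was not tested. CECR2, a bromodomain subunit of an ISWI remodeller, read 4.81, 4.85, 6.66 and 6.58, near the read minimum in the first 2. ATAD2, a bromodomain ATPase expressed with the cell cycle, read 11.09, 10.66, 9.80 and 10.49 and was lowest in erAlec0, as EZH2 was. No subunit list had a median beyond 0.17 in size in any of the 3 lines.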

How the data were processed

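The H3122 lines naive, erCriz0, erAlec0 and erLor0 each have 1 RNA-seq and 1 H3K27ac ChIP-seq library. The authors deposited 1 table of peak and gene pairs at most 20 kb apart, with log2-scaled rlog values that they computed with DESeq2. Per the methods, MiSeq RNA reads were aligned to hg38 with HISAT2 and counted with HTSeq-count. ChIP-seq reads were aligned to hg38 with BWA, peaks were called with MACS2 on each sample and merged over 4 samples, and reads were counted with featureCounts. Versions of these tools are not given in the sources used here. Input DNA was not subtracted. The table also holds a correlation with its p-value per pair and mean columns, which were not used. Every per-sample column was matched to a line by its name.

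The rlog function shrinks differences of features with few reads towards 0. Read totals cannot be recovered from it, and sequencing depth is therefore unknown, which leaves no counting error to print. Median rlog values per library were 8.09 to 8.14 over expressed genes and 4.02 to 4.13 over peaks.

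Members, role lists and other lists were chosen with earlier results of these data known. Named genes were those past a change of 1 in any line (none), the 12 with the largest range over the lines and the gene with the largest range of each role. All other genes given with values, KAT2B, EP300, HDAC4 and KDM5B among them, were chosen after their values were seen. Named peaks were the 2 largest rises and falls per line among peaks reaching log2 of 15 reads. Levels were compared between genes after subtraction of log2 of the union exon length in kb. GC content was that of the canonical GENCODE release 44 transcript, in 50 bins. Gene coordinates came from the table, and 35 of 47 were identical in GENCODE release 44. Some cell type markers are not reported here. Scripts were tested on simulated data. Alternatives were other limits, centring, quantile normalization, other filters and other promoter definitions, and those added after the data were seen are named in the closing section. Python 3.11.15, numpy 2.4.6, pandas 2.3.3 and matplotlib 3.10.9 were used.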

Additional observations from a re-analysis of the deposited data

Results flagged for a closer look

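These results were marked because erCriz0 stood on one side of naive cells and another resistant line on the opposite side, with a gap of at least 1. The differences were not tested, since each line has 1 library. For RNA, erAlec0 exceeded erCriz0 by 1.2 for HDAC7, by 1.16 for KMT2D and by 1.15 for KDM6B. Subtraction of the trend with GC content left 0.75, 0.84 and 0.71. For the HDAC9 promoter peak at the distal start, the difference from erCriz0 was -1.97 in erAlec0 and -1.96 in erLor0.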

How the results depend on the processing

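Each line has 1 library per assay, and leaving out a replicate was not possible. No paired analysis was possible because the groups share only replicate number 1 and no result comes from a test. Read depth, copy number and input signal limit all values and are not known here. Of 441 values under other settings, 323 were planned, and no value past a limit changed sign. Settings added after the data were seen were subtraction of the GC trend or of the trend with peak level, centring for the range, RefSeq starts and leaving out HDAC9 peaks.

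At 1.5-fold instead of 2-fold, the genes higher than naive numbered 2, 4 and 0 in erCriz0, erAlec0 and erLor0, and the lower ones 1, 2 and 1. At the same limit, erAlec0 against erCriz0 gave 8 and 3, erLor0 against erCriz0 6 and 1, and erLor0 against erAlec0 0 and 1. Rising peaks then numbered 96, 175 and 99, and falling ones 102, 144 and 146. A fall in the limit raises such counts by construction. Without the GC trend, 0 genes differed by 1 between erAlec0 and erCriz0 and 0 had a range of 1, and erCriz0 medians became -0.022 for zinc-dependent deacetylases (from -0.26), 0.23 for sirtuins (from -0.04) and -0.048 for other methyltransferases (from -0.16).

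Quantile normalization moved erCriz0 medians to -0.12 for SWI/SNF and -0.27 for other methyltransferases. Means in place of medians gave -0.12 for zinc-dependent deacetylases and 0.14 for demethylases in erCriz0, and -0.23 for PRC2 and 0.26 for demethylases in erAlec0. For peaks paired with 1 gene only, 230 of 659, rises numbered 12, 42 and 8 and falls 4, 15 and 26. Falls in erCriz0 were 11 among peaks reaching log2 of 15 and 7 within 5 kb. Without HDAC9, 23 peaks fell in erLor0. Peaks over the gene start itself gave 2 rises in erAlec0. With the strongest peak at any RefSeq start of each gene, 0 promoter peaks rose in erCriz0 and 1 fell in each of erAlec0 and erLor0. The rise at the distal HDAC9 start then drops out, since another HDAC9 start has a stronger peak. Centring gave 3 promoter rises and a median of 0.58 in erLor0. Ranks per kb were the same for 23 of 47 genes with the longest transcript. The cause of these moves was not tested where the setting does not itself set the count.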
